A study of Mus musculus with 6 samples.

Results

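A group of 10 genes that serves as a common transcript readout of Fgf-Erk signalling was followed in day 2 epiblast-like cells (EpiLCs) with and without Smad2 and Smad3. These are the Sprouty genes Spry1, Spry2 and Spry4, the Sprouty-related genes Spred1 and Spred2, the dual-specificity phosphatase genes Dusp4 and Dusp6, the Ets factor genes Etv4 and Etv5, and the immediate-early gene Egr1. All 10 of 10 were found by symbol among the 24288 gene symbols of the expression table, with the entry of highest total taken where a symbol had several. They were chosen by their known role in the pathway, with earlier results of these data known.

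EpiLCs are mouse embryonic stem cells that have left the naive state and resemble the epiblast soon after implantation. All cells were of the 129/Sv//Ev strain. Before differentiation the stem cells of both genotypes grew in N2B27 with 1 µM PD0325091, a Mek inhibitor and so a block on Erk activation, 3 µM CHIR99021 and 1000 U/ml LIF. Both were then given 12 ng/ml Fgf2, 20 ng/ml Activin A and 1% KSR on fibronectin for 48 h, so the Fgf ligand and Activin A were supplied equally. The 3 wild-type (WT) libraries came from the CCE line. The 3 double knockout (DKO) libraries came from 1 clone, KT15.1F6, made by cutting out exon 1 of Smad3 in cells already homozygous for a Smad2 mutation. Each library was a separate differentiation, and because each genotype was 1 line, an effect of the missing Smads and other differences between the lines cannot be told apart. From each, 800 ng of total RNA was depleted of ribosomal RNA and sequenced over 75 cycles, paired-end.

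In this pathway a Fgf binds its receptor tyrosine kinase, and docking proteins pass the signal through Ras, Raf and Mek to Erk. Active Erk phosphorylates Ets factors and other nuclear proteins, and Egr1 and Fos are then transcribed within minutes. Spry, Spred, Dusp, Etv4 and Etv5 transcripts follow. Many of their products act back on the pathway: Sprouty proteins inhibit receptor to Ras signalling, Spred proteins recruit neurofibromin to restrain Ras, and Dusp6 and Dusp4 remove phosphate from Erk. In embryonic stem cells Fgf4 to Erk signalling is known for driving exit from the naive state.

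To show sequence at the starts of genes of this feedback arm, the 250 bases before the start of Spred1, Spred2 and Dusp6 are given from RefSeq (GRCm38.p6, 5′ to 3′, all on the plus strand). They were picked because each holds an Ets core, searched as CGGAAG or its reverse complement CTTCCG and printed in capitals, and Ets factors are nuclear targets of Erk.
Spred1, chr2:117120821-117121070: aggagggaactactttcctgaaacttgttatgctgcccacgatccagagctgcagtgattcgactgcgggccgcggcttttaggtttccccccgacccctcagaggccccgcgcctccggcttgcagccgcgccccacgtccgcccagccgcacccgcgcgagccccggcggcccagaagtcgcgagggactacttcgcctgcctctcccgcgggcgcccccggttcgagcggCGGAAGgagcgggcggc
Spred2, chr11:19924192-19924441: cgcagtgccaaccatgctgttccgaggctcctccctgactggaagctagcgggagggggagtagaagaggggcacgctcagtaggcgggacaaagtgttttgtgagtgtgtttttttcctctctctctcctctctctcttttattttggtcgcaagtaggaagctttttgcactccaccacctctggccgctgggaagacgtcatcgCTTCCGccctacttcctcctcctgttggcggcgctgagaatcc
Dusp6, chr10:99262981-99263230: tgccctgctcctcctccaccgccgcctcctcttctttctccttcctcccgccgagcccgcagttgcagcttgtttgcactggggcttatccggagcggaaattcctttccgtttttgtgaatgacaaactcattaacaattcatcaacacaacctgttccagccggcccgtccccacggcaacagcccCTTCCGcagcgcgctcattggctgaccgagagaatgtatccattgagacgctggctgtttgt
The core begins 17 bases before the start of Spred1, 43 before that of Spred2 and 62 before that of Dusp6. Windows of 6 of the 10 members were searched (also Spry1, Spry2 and Etv5). Those of Egr1 and Spry4 were left out of the search by choice, and no window was available for Dusp4 and Etv4. The counts therefore say nothing of Egr1 and Spry4, the members called changed below. The Ets core stood in 3 of the 6, against 13.8% of 27025 RefSeq promoter windows. The letters CAGAC or GTCTG, a box that Smad3 binds, stood in 0 of the 6, against 42.1% of windows. Other Smad motifs were not searched. A TGACGT or ACGTCA, a Cre-like site, lay in the Spred2 window alone among the 6, against 6.56% of windows. As shown next, the genes with the Ets core included 1 with higher, 1 with lower and 1 with overlapping values in DKO.

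Values are normalized reads, that is reads over the whole gene body, introns included, divided by 1 size factor per library. Library totals were alike, from 57644143 to 63046034 reads, and a member had between 1315 and 30207 reads per library, so that counting error was 0.590% to 2.71% of its value. A change was called where the limma p, adjusted by Benjamini and Hochberg's method over 17038 genes tested, was under 0.05 and the fold change was over 1.5, and log2 fold changes were taken as DKO minus WT on the log2(value + 1) scale. The targeted Smad3 followed its label, with 799, 846 and 873 normalized reads in WT and 21.5, 30.5 and 18.7 in DKO (log2 fold change -5.12 ± 0.13 SE, limma, adjusted p = 7.91e-22). Smad2 reads remained, 4520 ± 86.3 in WT and 5062 ± 109 in DKO (SD, n = 3), so reads over this gene did not check the label of the Smad2 mutation.

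Egr1 and Spry4 rose in DKO EpiLCs, and no member fell past the threshold. In bulk RNA more cells that express a gene and more RNA per cell cannot be told apart, and likewise for fewer cells and less RNA. These were 2 of the 10 members, both higher, where 15.4% of all genes tested were called changed, 7.35% higher and 8.04% lower. Below the fold threshold, Spred1 and Etv4 were slightly higher in DKO and Spry1 and Dusp6 slightly lower, each with no overlap between the genotypes, whereas Spry2, Spred2 and Dusp4 overlapped. An adjusted p under 0.05 at any fold change was reached by 7 of 10 members, 5 higher and 2 lower, against 53.4% of all genes, 26.9% higher and 26.5% lower. The 3 values of each genotype did not overlap for 7 of 10 members, against 59.0% of all genes. Over both directions these shares are near the background. The shares higher, 2 of 10 called and 5 of 10 at any fold change, lay above it, and the shares lower, 0 and 2 of 10, below it. Each rests on few genes. The median log2 fold change of the members was 0.0045 beside 0.00012 for all genes, and the median size of the change was 0.25 beside 0.19, with 4 members below the latter.

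**Figure D1:**
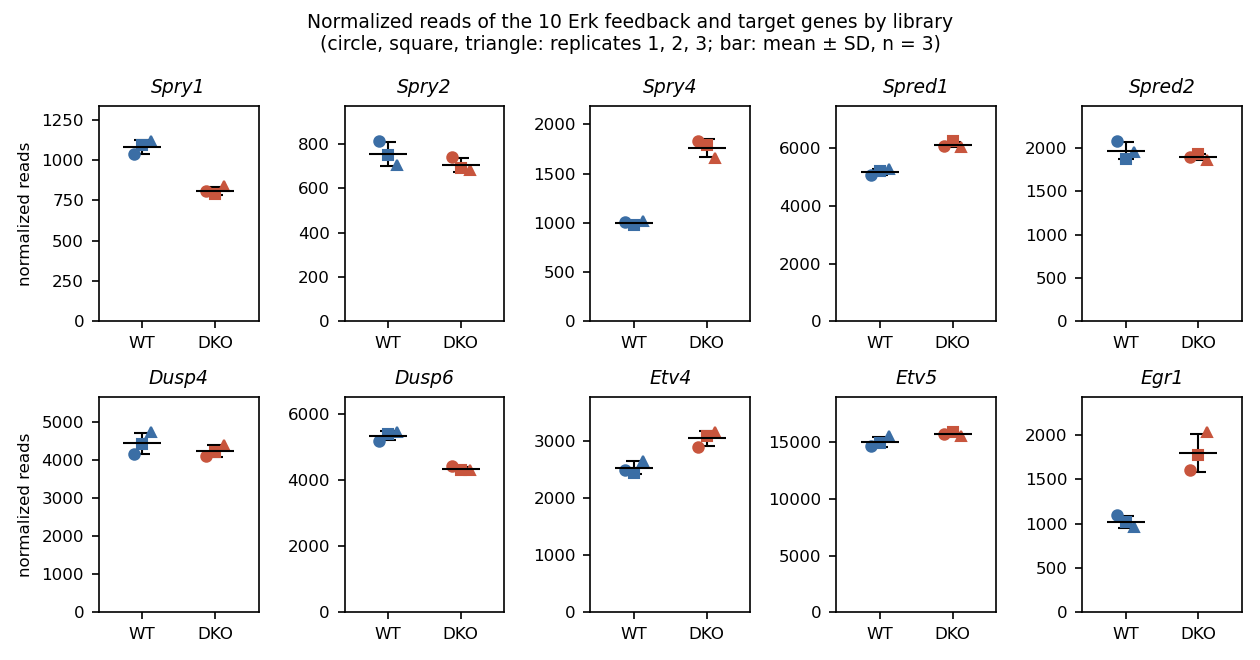
Normalized reads of the 10 genes (vertical axes, from 0) in each WT and DKO library, with circle, square and triangle for replicates 1, 2 and 3 and bars for mean ± SD (n = 3). Spry4 and Egr1 stand well above WT in all 3 DKO libraries, while the DKO points of Spry1 and Dusp6 lie below WT.

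Egr1 (NM_007913, chr18:34861207-34864956, plus strand, GRCm38.p6), a zinc-finger factor transcribed within minutes of Erk activation, had 1091, 1016 and 957 normalized reads in WT and 1597, 1767 and 2024 in DKO. Every DKO library was above every WT library, the closest pair being 1.46-fold apart, although the DKO libraries also differed among themselves, with a coefficient of variation of 12.0% against 6.56% in WT. The log2 fold change was 0.81 ± 0.06 (SE), with a 95% interval from 0.69 to 0.93 (limma, adjusted p = 6.54e-12). Without DKO replicate 3, the highest library, it was 0.72, and without DKO replicate 1, the lowest, it was 0.89.

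Among Spry1, Spry2 and Spry4, which encode feedback inhibitors of receptor tyrosine kinase signalling, only Spry4 was called changed. Spry4 (NM_011898, chr18:38586247-38601347, minus strand) had 1011, 983 and 1019 normalized reads in WT and 1827, 1793 and 1660 in DKO. The groups were far apart, the closest WT and DKO libraries being 1.63-fold apart, with coefficients of variation of 1.86% in WT and 5.02% in DKO. Its log2 fold change was 0.81 ± 0.04 (95% interval 0.72 to 0.89, limma, adjusted p = 5.79e-15). Spry1 (NM_001305440, chr3:37639947-37644599, plus strand) went the other way, with 1035, 1095 and 1116 normalized reads in WT and 806, 790 and 837 in DKO. No values overlapped, but the log2 fold change of -0.42 ± 0.05 (95% interval -0.51 to -0.32, limma, adjusted p = 1.79e-08) was short of 1.5-fold.

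Spry2 (NM_011897, chr14:105891947-105896819, minus strand) had 812, 750.1 and 705 normalized reads in WT and 743, 691 and 682 in DKO. These ranges overlapped, and the log2 fold change was -0.10 ± 0.05 (95% interval -0.21 to 0.01, limma, adjusted p = 0.132). Without WT replicate 3, its lowest WT library, the same test gave an adjusted p = 0.0334 with limma at a log2 fold change of -0.15. Spry1 shares 710 bases with Gm42922, and Spry4 shares 71 and 119 bases with the small RNA genes Gm27369 and Gm27804, all on the opposite strand. Positions printed here are RefSeq gene spans, and the GENCODE transcript matched to the counted entry differs at an end by more than 1 base for 6 of the 10 members, by up to 1449 bases at an end (Spred2) and up to 2.55% of the length (Dusp4). The library kit was a stranded one, but whether the counting used strand was not stated. Reads of Gm42922, Gm27369 and Gm27804 therefore could not be separated from the members here.

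Because the DKO values lay above WT for Spry4 and below WT for Spry1, the make-up of these 3 transcripts within a library is also given. It restates those differences on a scale that does not depend on the scaling between libraries, and no test is drawn from it. Per kb of gene body, Spry4 made up 14.7%, 14.3% and 14.9% of the summed Spry1, Spry2 and Spry4 level in the WT libraries and 27.1%, 27.6% and 25.6% in DKO. Spry1 made up 51.2% ± 2.19 in WT and 40.0% ± 1.62 in DKO (SD, n = 3), and Spry2 34.1% ± 2.27 and 33.2% ± 0.815. The Spry4 and Spry1 shares thus did not overlap between the genotypes while the Spry2 shares did. The ratio of Spry4 to Spry1 was 0.286 ± 0.013 in WT and 0.670 ± 0.051 in DKO, 2.34-fold higher. The length used matters for the order, and both scales divide the same reads, introns included. Per kb of exon, Spry4 held 20.8% ± 0.435 in WT and 35.6% ± 1.18 in DKO, above the 31.9% ± 1.50 of Spry1 in DKO, whereas per kb of gene body Spry1 was the larger share in every library.

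**Figure D2:**
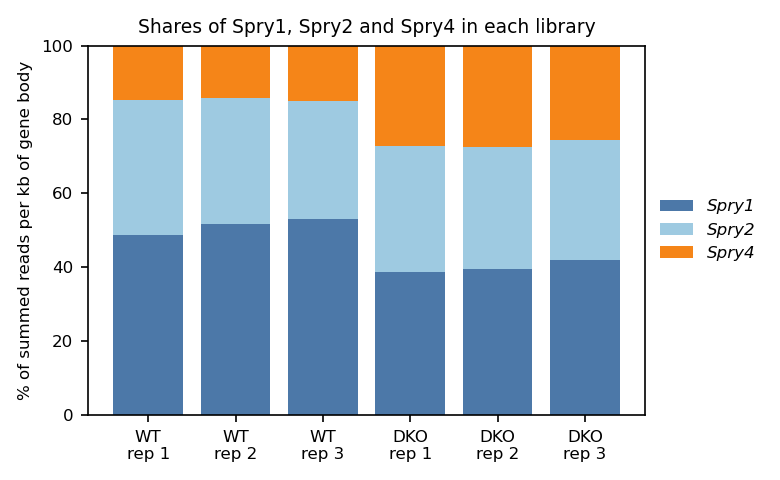
Shares of Spry1, Spry2 and Spry4 in their summed reads per kb of gene body (vertical axis, %), with 1 stacked bar per library. The Spry4 segment is 14.3% to 14.9% in WT and 25.6% to 27.6% in DKO, and the Spry1 segment is smaller in each DKO bar than in any WT bar.

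The Spred genes encode membrane-bound relatives of Sprouty that limit Ras activation. Spred1 (NM_033524, chr2:117121071-117182279, plus strand), with an Ets core before its start, had 5085, 5213 and 5273 normalized reads in WT and 6100.1, 6243 and 6068 in DKO. All DKO values were above all WT values, by a log2 fold change of 0.24 ± 0.03 (95% interval 0.19 to 0.30, limma, adjusted p = 2.40e-08). A shorter Spred1 entry that ends 9.43 kb earlier allowed the reads to be split. Within its 51.2 kb there were 1285 ± 11.7 normalized reads in WT and 1473 ± 35.5 in DKO (SD, n = 3), 1.15-fold, and in the rest of the gene 3906 ± 87.4 and 4664 ± 122, 1.19-fold. The DKO level was thus higher in both stretches. Spred2 (NM_033523, chr11:19924442-20024026, plus strand), which also has the Ets core, had 2071, 1873 and 1948 normalized reads in WT and 1892, 1922 and 1857 in DKO. Its values overlapped, with a log2 fold change of -0.05 ± 0.04 (95% interval -0.13 to 0.02, limma, adjusted p = 0.235).

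Of the phosphatases, Dusp6 (NM_026268, chr10:99263231-99267489, plus strand), a cytoplasmic enzyme selective for Erk, had 5204, 5406 and 5448 normalized reads in WT and 4419, 4313 and 4305 in DKO. The DKO libraries lay close together and below WT, with a log2 fold change of -0.30 ± 0.03 (95% interval -0.36 to -0.24, limma, adjusted p = 1.03e-09), short of 1.5-fold. Dusp4 (NM_176933, chr8:34807610-34819894, plus strand), its nuclear counterpart, had 4161, 4428 and 4717 normalized reads in WT and 4088, 4212 and 4391 in DKO. These overlapped, and the log2 fold change was -0.07 ± 0.04 (95% interval -0.14 to 0.01, limma, adjusted p = 0.123). With limma, the adjusted p was 0.0113 without WT replicate 1, the lowest WT library, and 0.0464 without DKO replicate 3, the highest DKO library, at log2 fold changes of -0.11 and -0.09.

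Etv4 and Etv5 are Pea3-type Ets factors whose transcripts follow Fgf signals in many embryonic tissues. Etv4 (NM_008815, chr11:101769747-101785310, minus strand) had 2495, 2442 and 2655 normalized reads in WT and 2892, 3091 and 3146 in DKO. The groups were separate, with a log2 fold change of 0.27 ± 0.04 (95% interval 0.19 to 0.34, limma, adjusted p = 8.09e-07). Etv5 (NM_023794, chr16:22381313-22439570, minus strand), the member with the most reads, had 14678, 14919 and 15555 normalized reads in WT and 15699, 15869 and 15599 in DKO. The highest WT and lowest DKO libraries were all but equal, and the log2 fold change was only 0.06 ± 0.02 (95% interval 0.01 to 0.11, limma, adjusted p = 0.0297). With limma, this p ran from 0.0051 to 0.130 when each library was left out in turn.

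**Figure D3:**
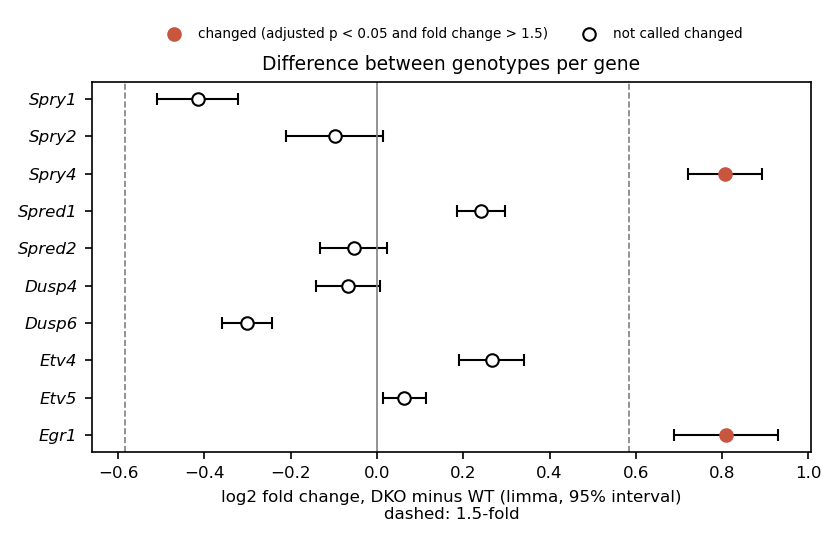
Log2 fold change of each of the 10 genes (horizontal axis, DKO minus WT, limma) with its 95% interval, the dashed lines marking 1.5-fold. Spry4 and Egr1, both at 0.81, are the filled points to the right of the line, and the other 8 intervals lie inside the lines.

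For the 8 members that were not called, the 95% intervals covered fold changes from 0.703 to 1.27 at most, so changes of 1.5-fold lay outside them. Per kb of gene body, the order of levels in WT ran from Dusp6 (1257 ± 30.7 normalized reads per kb, SD, n = 3) over Dusp4 (361 ± 22.6), Egr1 (272 ± 17.9), Etv5 (258 ± 7.78), Spry1 (233 ± 9.0), Etv4 (163 ± 7.13), Spry2 (155 ± 11.0), Spred1 (84.8 ± 1.57) and Spry4 (66.5 ± 1.24) to Spred2 (19.7 ± 1.00). Neighbours in this order did not overlap except Egr1 with Etv5 and Etv4 with Spry2. In DKO, Egr1 stood at 479 ± 57.3 normalized reads per kb, above Dusp4 at 344 ± 12.4, and Spry4 at 117 ± 5.86, above Spred1 at 100.3 ± 1.52. Per kb of gene body Dusp6 was the highest there too, at 1020 ± 14.9, and Spred2 the lowest, at 19.0 ± 0.33. This order rests on the length used, since exons make up 2.91% of the Spred2 span and 80.96% of that of Egr1. Values per kb of exon divide the same reads, introns included, by exon length, so they are not levels of exon sequence alone. Per kb of exon, Etv5 was the highest in WT, at 3786 ± 114 normalized reads, before Dusp6 at 1914 ± 46.7. Spry4 was the lowest, at 211 ± 3.93, with Spred2 at 689 ± 35.1. On that scale Egr1 in DKO, at 592 ± 70.8, was below Dusp4, at 1544 ± 55.6. Within a library, the ratio of Egr1 to Dusp6 per kb was 0.238, 0.213 and 0.199 in WT and 0.411, 0.465 and 0.534 in DKO. This ratio restates the differences of Egr1 and Dusp6 given above, and no test is drawn from it.

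Egr1 was next set beside 17 other immediate-early genes, transcripts that appear without new protein synthesis. Of these, 8 rose, 3 fell and 6 were not called changed, with a median log2 fold change of 0.45 beside 0.00012 for all genes. Over all genes tested 7.35% were called higher and 8.04% lower. Fos, a partner in the AP-1 complex, rose from 596, 525 and 392 normalized reads in WT to 1555, 1857 and 2356 in DKO (log2 fold change 1.93 ± 0.11, limma, adjusted p = 3.26e-14). Egr3, a relative of Egr1, was scarce, with 1.07, 3.41 and 5.33 normalized reads in WT and 13.5, 31.5 and 27.99 in DKO (log2 fold change 2.63 ± 0.41, limma, adjusted p = 5.82e-06). Atf3, a stress-induced factor, fell from 249, 228 and 221 to 46.8, 62.0 and 48.2 (log2 fold change -2.14 ± 0.12, limma, adjusted p = 4.24e-14). With a pseudocount of 10 in place of 1 the Egr3 log2 fold change was 1.34, that of Fos was 1.91, and both calls stayed. The list therefore held genes that rose and genes that fell.

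Further members of this list are named after their values were seen. Fosb, with 1350, 1484 and 1074 normalized reads in WT and 2870, 3575 and 4280.5 in DKO, rose by 1.45 ± 0.09 on the log2 scale (limma, adjusted p = 5.13e-13). Jun, Fosl1 and Egr2 rose by log2 fold changes of 0.99, 0.99 and 1.13. Junb and Nr4a1 were called at 0.64 and 0.59 but were at 0.49 and 0.51, under 1.5-fold, without DKO replicate 3, and Nr4a1 was at 0.56 without WT replicate 2. Besides Atf3, Ier5 and Fosl2 fell. Ier5 went from a mean of 1173 normalized reads in WT to 742 in DKO (log2 fold change -0.66 ± 0.04, limma, adjusted p = 8.91e-13). Fosl2, at a WT mean of 45.5, was close to the threshold at -0.59. Fosl1 overlaps Ccdc85b and Jun overlaps Junos, so some of their reads could come from those genes. Within the DKO group Egr1 and the genes that rose were often lowest and highest in the same libraries. Of the 8 that rose, 7 were lowest in DKO replicate 1 and 6 highest in DKO replicate 3, the libraries in which Egr1 was lowest and highest. Over all 1253 genes called higher, 33.8% were lowest in DKO replicate 1 and 31.9% highest in DKO replicate 3. In WT, 4 of the 8 were lowest in replicate 3, as Egr1 was, against 29.8% of those 1253 genes. Spry4 differed, being lowest in DKO replicate 3. The source of this spread was not tested.

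**Figure D4:**
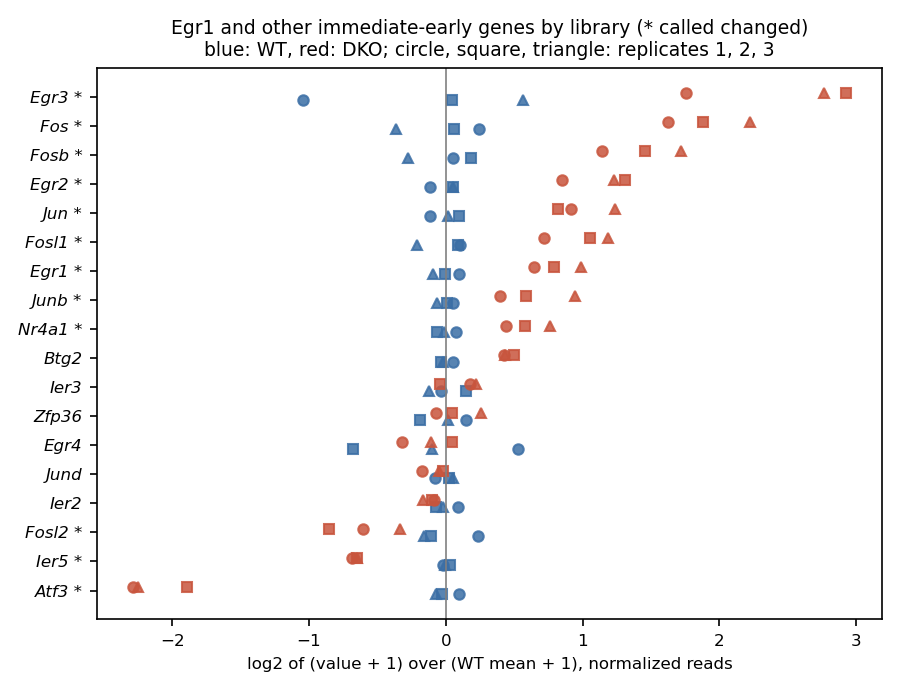
Egr1 and 17 other immediate-early genes in each library, as log2 of (value + 1) over (WT mean + 1) of normalized reads (horizontal axis), with WT in blue, DKO in red, shapes for replicates 1, 2 and 3 and an asterisk for genes called changed. Egr3, Fos and Fosb lie farthest right in DKO and Atf3 farthest left, and for Egr1 the DKO circle is lowest and the DKO triangle highest.

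Other genes of the pathway were taken from lists of known roles, also chosen with earlier results of these data known. They held 81 genes, of which 80 could be tested. In these lists 27 of the 80 genes tested were called, 14 higher and 13 lower, the immediate-early genes included. Over all genes tested 15.4% were called, 7.35% higher and 8.04% lower. These shares also stand beside the count of each list below. Among 12 further Mapk phosphatases and feedback inhibitors 2 rose and 3 fell, with a median log2 fold change of -0.18. Il17rd (Sef), a membrane inhibitor of Fgf receptor signalling, fell from 1624, 1699 and 1631 normalized reads in WT to 819, 813 and 836 in DKO (log2 fold change -1.0 ± 0.04, limma, adjusted p = 2.70e-17). Spry3 fell by 1.07 and Dusp2, a nuclear Mapk phosphatase, by 1.00 on the log2 scale, from WT means of 44.9 and 83.2 normalized reads. The genes that rose, named after their values were seen, were Dusp5 (log2 fold change 0.69) and Errfi1 (0.62). Dusp5 is a nuclear phosphatase of Erk and overlaps AC137853.2. Errfi1, an inhibitor of the Egf receptor, overlaps 1700045H11Rik.

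Upstream, of the 6 Fgf ligand genes that could be tested 3 fell, none rose and the median log2 fold change was -1.17. Fgf8 had 145, 136 and 158 normalized reads in WT and 4.31, 6.83 and 2.07 in DKO (log2 fold change -4.87 ± 0.26, limma, adjusted p = 1.33e-14). With a pseudocount of 10 its log2 fold change was -3.45. Fgf15 fell by 2.67 and Fgf5, which marks the formative epiblast, by 2.02 on the log2 scale. Fgf15 overlaps Gm26793 and Gm39119. Fgf4, the ligand best known for exit from the naive state, had 8267 ± 287 normalized reads in WT and 9388 ± 420 in DKO (SD, n = 3, log2 fold change 0.18), a gene chosen after its values were seen. Of the 8 receptor and docking genes 3 rose and none fell, with a median of 0.48. Fgfr2 rose from 748, 749 and 715 to 2231, 2273 and 2122 normalized reads (log2 fold change 1.58 ± 0.04, limma, adjusted p = 1.87e-21), while Klb, a co-receptor, rose by 2.01 and Fgfr4 by 0.85 from WT means of 21.9 and 17.5 normalized reads. Fgf8, Fgf5 and Fgfr2 are among the genes the study singled out in these same libraries, so their directions are not independent evidence.

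In the core from Grb2 to the Rsk kinases, 21 of the 22 genes were not called changed, with log2 fold changes between -0.39 and 0.22. The lowest of these 21, chosen after its values were seen, was Mapk3 (Erk1). It had 1178 ± 67.0 normalized reads in WT and 897 ± 29.3 in DKO (SD, n = 3, limma, adjusted p = 6.98e-08). At any fold change, 7 of the 22 were higher and 8 lower at an adjusted p under 0.05 (limma). The shares over all genes were 26.9% and 26.5%. Of 10 further Ets factors and Srf, Elk3, a ternary complex factor, rose by 0.91 and Ets1 fell by 1.04. Their WT means were 36.9 and 185 normalized reads. Elk3 shares 19657 bases with Cdk17, and Ets1 overlaps Gm27240. Of 5 other output genes, Epha2, an ephrin receptor, fell by 0.98 and Myc by 0.59 on the log2 scale. Myc was close to the threshold and lay under it, at -0.54, -0.58 and -0.58, without WT replicate 1, DKO replicate 1 or DKO replicate 3.

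**Figure D5:**
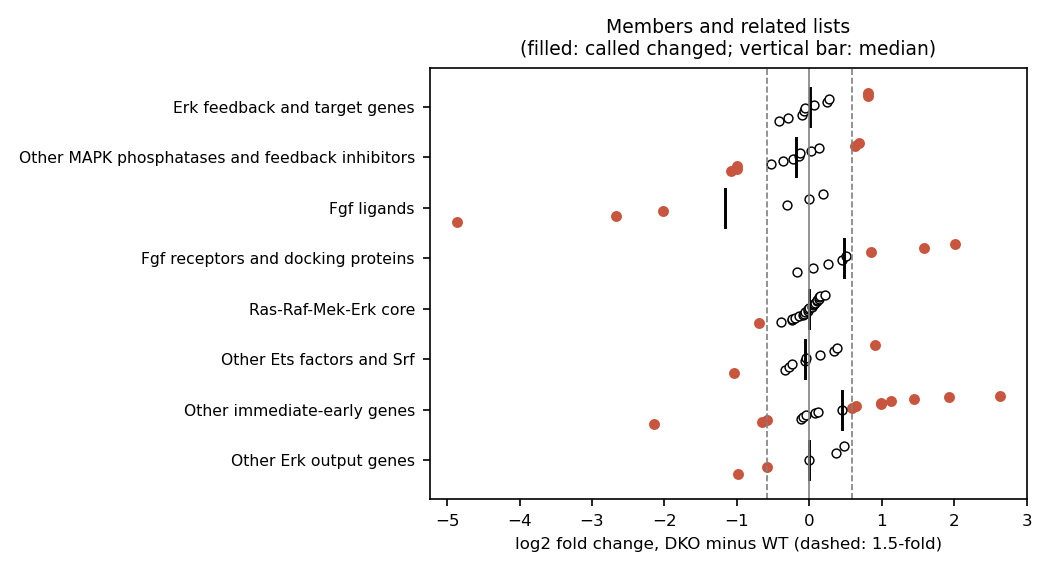
Log2 fold changes (horizontal axis, DKO minus WT, limma) of the 10 members and of 7 related lists, 1 point per gene, filled where called changed, with a bar at each median and dashed lines at 1.5-fold. The members centre on 0.0045, the Fgf ligands on -1.17 and the other immediate-early genes on 0.45.

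The cells carried EpiLC markers in both genotypes, and other marker lists moved with genotype. Of 6 EpiLC markers 3 fell, Fgf5, Pou3f1 and Sox3, and none was called higher. Mean Fgf5 was 3235 normalized reads in WT and 798 in DKO. The summed level of all 6 was 103530 to 107181 normalized reads in WT and 95036 to 96273 in DKO. Most of it was Dnmt3b, with means of 70390 and 65421, which was not called. Sums given below likewise cover all 6 markers of a list. Of 6 naive markers 5 rose (3399 to 3614 against 5945 to 6033). All 5 trophoblast markers that could be tested rose (116 to 147 against 565 to 684), with Elf5 at 0 in 4 of 6 libraries. In DKO most of this sum was Tfap2c, with means of 67.5 in WT and 390 in DKO. Hand1 was scarce (means 4.32 and 15.2), and Krt7 was close to the threshold at a log2 fold change of 0.60. Tfap2c and Gata3 are among the genes the study singled out in these same libraries. Of 5 endoderm markers tested 1 rose (60.2 to 86.4 against 86.1 to 98.5), with Ttr at or near 0. Of 5 fibroblast markers tested 2 fell (1650 to 1738 against 526 to 598), with Postn at or near 0. Most of the fibroblast sum was Dcn, with means of 1330 in WT and 300 in DKO. The part of these shifts in the Egr1, Spry4 and other values was not tested.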

How the data were processed

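RNA was measured in 3 WT and 3 DKO libraries of day 2 EpiLCs. The authors removed ribosomal reads with bowtie2, aligned to mm10 with STAR, dropped PCR duplicates (Samtools) and assigned reads to refGene gene bodies. Versions, and whether the counting used strand, are not given in the sources used here. The deposited values are a signal, the counts of a library over its size factor (1.76 to 1.93), with no correction for gene length. Whole reads were recovered for 100% of values (tolerance 0.1 read). The 138 rows without a symbol (0.517% of reads) were left out. The authors' deposited comparison table (means, log2 fold changes with errors, Wald scores, p-values and adjusted p-values from DESeq2) was not used.

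The test was limma (version 3.58.1, R 4.3.3, with a variance trend) on log2(value + 1) for 1 entry per symbol that passed filterByExpr (edgeR, version 4.0.16) with these reads. A change needed a Benjamini-Hochberg adjusted p under 0.05 and a fold change over 1.5. The p-values measure the spread between differentiations of 1 line per genotype. No pair of libraries agreed within sampling noise (chi-square per degree of freedom 3.44 to 5.64). The script was tested on simulated data. Counting errors cover counting only, as reads carried no molecular identifiers. That gene bodies include introns was checked on 76 pairs of entries with 1 span but exon lengths differing by 300 bases or more, of which 73 had identical values. Positions and promoters are RefSeq GRCm38.p6, and overlaps and strands are from GENCODE vM21.

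The members and lists were chosen with earlier results of these data known. Named are all members, Smad2, Smad3 and, per pathway list, up to 3 called genes with the largest change. Not all genes this rule names are reported here. Other genes are said to be chosen after their values were seen. Alternatives were edgeR and DESeq2 (version 1.42.0) on recovered reads, voom, other scalings, pseudocounts, no filter, all entries, other thresholds, a replicate block, and leaving out each library.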

Additional observations from a re-analysis of the deposited data

How the results depend on the processing

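The calls of the 10 members were the same in all 164 recomputations, with Spry4 between 0.78 and 0.85 and Egr1 between 0.72 and 0.89 on the log2 scale. Not all of these were separate checks. Some used further Spry1 entries with identical values. The replicate block, no filter and all entries left each member's log2 fold change unchanged by design. The count of genes changed, 2623, was 9098 with no fold threshold and 1115 when tested against a fold change of 1.5. Without a fold threshold 53.4% of all genes tested passed. So did 7 of 10 members, 9 of 12 other Mapk phosphatases and inhibitors, 6 of 8 receptor and docking genes, 15 of 22 core genes and 8 of 10 Ets factors. Tested against 1.5-fold, 1115 of 17038 genes passed. Among them were 2 of 10 members, Spry4 and Egr1, and 3 of 6 Fgf ligands. So were 1 of 12 of these phosphatases and inhibitors, 1 of 10 Ets factors, 5 of 17 immediate-early genes and 1 of 5 other output genes. The other output genes also gave 1 call, Epha2, at a pseudocount of 10 and 1 to 3 calls with a library left out. With a library left out, 2513 to 2573 genes were changed. The replicate block gave 2602 genes changed, and as same-numbered libraries did not deviate together (correlations 0.0088, -0.029 and 0.036), the numbers were not treated as pairs. Scaling by library size moved the median log2 fold change of all genes most, to -0.0052. Each member had over 1000 reads in every library. Of the called pathway genes named, Atf3, Dusp2, Egr2, Egr3, Elk3, Fgf8, Fgfr4, Fosl1, Fosl2, Klb and Spry3 had fewer than 100 in some. The design holds 1 line per genotype and 1 time point, and transcripts do not measure Erk phosphorylation.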
